A study of Mus musculus with 18 samples.

Results

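The 30 genes described here make, sense, move and remove cholesterol. They were chosen by symbol, and all 30 were found among the 22783 gene symbols of the deposited table and passed the filter on low values (1 FPKM or more in 3 or more of the 18 libraries), as did 13487 genes in all. FPKM are fragments per length of transcript, scaled to the mapped fragments of the library, so levels of different genes can be set side by side. Cerebellar RNA was sequenced from FVB mice of 2 genotypes, with 3 libraries at each of weeks 5, 12 and 28. Animals labelled Cck-/- are, by that label, without a working copy of Cck, which encodes cholecystokinin, a neuropeptide. Animals labelled ATXN1[30Q]D776/Cck-/-, called transgenic below, share that Cck label and carry in addition a transgene for human ataxin-1 with a tract of 30 glutamines and an aspartate in place of a serine that is otherwise phosphorylated. In the line of this name the transgene is driven in Purkinje cells, which send the output of the cerebellar cortex, by regulatory sequence of Pcp2; the labels do not state the promoter. Wild-type Cck libraries were not analysed here, and the labels do not say whether the 3 libraries of a group stem from separate animals. Every group held a library with Xist above the Y-linked genes and a library with the reverse, so its 3 libraries did not all stem from the same animal. Whether each library had its own animal is unknown. The p-values measure the spread between these libraries, which may be technical in part.

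Cholesterol does not cross the blood-brain barrier, so brain cells make their own. The mevalonate arm builds isoprenoid units from acetyl-CoA, squalene is made from them and cyclised to lanosterol, and a series of demethylations, reductions and desaturations turns lanosterol into cholesterol. SREBP transcription factors, held in the endoplasmic reticulum by Scap and the Insig proteins when sterols are plentiful, switch on the genes of these enzymes, while LXR receptors sense oxidised sterols and switch on the exporters Abca1 and Abcg1. Oligodendrocytes that build myelin make much of the brain's cholesterol, astrocytes make it for neurons, and neurons dispose of an excess through the hydroxylase Cyp46a1.

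Cck was above 0 FPKM in all 18 libraries. It lay between 81.0 and 112 FPKM in the 3 transgenic libraries of week 5, against 17.1 to 25.8 in the Cck-/- libraries of that age and 3.71 to 17.1 in the other 12 libraries. The label concerns a working copy of the gene, and FPKM per gene cannot show whether these transcripts encode a working product. Which part of the gene was altered was not examined here, so both genotypes are named as labelled. At week 5 the transgene and this level of Cck cannot be told apart as the companion of a difference. Summed FPKM per library ran from 389248 to 441509; read counts were not analysed here, so the depth is unknown. Granule neuron markers (8 genes) and Purkinje cell markers (13 genes) were checked for the tissue, and none was at 0 in every library. Transgenic replicates 1 and 2 of week 5 and replicate 3 of week 28 were low in genes of the choroid plexus, which makes cerebrospinal fluid, and in transgenic week 5 replicate 1, week 12 replicate 2 and week 28 replicate 1 Xist and Y-linked genes were detected together. Results without these libraries stand beside those they touch. At week 5 Xist was high in Cck-/- replicate 1 (66.3 FPKM) and in transgenic replicates 1 and 3 (99.6 and 61.2 FPKM). It lay at 0.882, 0.432 and 0.0806 FPKM in Cck-/- replicates 2 and 3 and transgenic replicate 2, where Y-linked genes were high. Sex was thus unevenly spread over the genotypes at week 5. The same held at week 12, with Xist high in Cck-/- replicate 1 (104 FPKM) and in transgenic replicates 1 and 2 (107 and 58.8 FPKM). At week 28 Xist was high in replicates 2 and 3 of both genotypes, so the Cck-/- libraries of weeks 12 and 28 also differed in sex. Sex was not in the model, and its part was not tested. Ebp and Nsdhl lie on the X chromosome.

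Of the 30 genes, 25 have a promoter window in the RefSeq table (build GRCm38.p6, 250 bases before to 50 after each start). The letters CCAAT, the box bound by NF-Y, a factor known to work beside SREBP, were searched on both strands and found in at least 1 window of 15 of the 16 synthesis enzyme genes with a window, of 6 of the 9 other genes and so of 21 of the 25. They were found in 42.7% of the 10117 tested genes with a window and in 41.1% of all 27025 genes of the table. The sterol regulatory element core TCACNCCAC was found in 1 of the 25 genes, Hmgcs1, and in 1.44% of all genes of the table. Other forms of the sterol element were not searched, so genes without this core may hold one. The motifs were chosen with earlier results known, and a match is a description of the letters, not evidence of binding. The 250 bases before the start are printed for Hmgcs1, Cyp51 and Sc5d, the enzyme genes with the largest differences between genotypes at week 5, and for Insig1, a sterol-regulated gene that was not called in any comparison. Capitals mark CCAAT, its reverse complement ATTGG and the sterol element core.
Hmgcs1, chr13:119690101-119690350, plus strand: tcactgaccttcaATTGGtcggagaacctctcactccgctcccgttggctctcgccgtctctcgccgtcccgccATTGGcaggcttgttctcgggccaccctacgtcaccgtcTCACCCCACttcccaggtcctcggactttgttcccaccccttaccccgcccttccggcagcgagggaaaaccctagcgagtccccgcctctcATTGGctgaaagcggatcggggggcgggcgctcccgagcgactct
Cyp51, chr5:4104698-4104947, minus strand: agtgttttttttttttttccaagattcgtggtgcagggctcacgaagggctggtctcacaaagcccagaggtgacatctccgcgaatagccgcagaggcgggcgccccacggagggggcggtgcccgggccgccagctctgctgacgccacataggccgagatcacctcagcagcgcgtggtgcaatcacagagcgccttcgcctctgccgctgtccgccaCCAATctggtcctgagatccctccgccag
Sc5d, chr9:42264301-42264550, minus strand: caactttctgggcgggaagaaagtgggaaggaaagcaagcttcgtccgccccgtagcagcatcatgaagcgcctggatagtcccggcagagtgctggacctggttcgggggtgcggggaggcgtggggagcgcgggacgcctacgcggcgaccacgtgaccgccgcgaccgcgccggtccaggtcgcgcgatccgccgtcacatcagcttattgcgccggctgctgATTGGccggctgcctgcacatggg
Insig1, chr5:28071162-28071411, plus strand: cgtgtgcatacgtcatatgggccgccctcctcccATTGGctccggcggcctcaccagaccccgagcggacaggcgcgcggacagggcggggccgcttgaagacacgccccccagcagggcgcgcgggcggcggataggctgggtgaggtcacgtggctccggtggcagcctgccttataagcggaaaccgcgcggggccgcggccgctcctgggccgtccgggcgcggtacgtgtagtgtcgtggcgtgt
Hmgcs1 alone among the 25 holds both motifs, with the sterol element lying between CCAAT boxes read on the opposite strand; Cyp51, Sc5d and Insig1 each hold a single CCAAT box.

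At week 5 the transgenic cerebellum had lower transcript levels of nearly the whole synthesis pathway. Of the 19 synthesis enzymes, 17 fell and 0 rose, and none of the other 11 genes was called by limma (4 of these 11 at an unadjusted p under 0.05). Over all 30 genes this is 17 lower and 0 higher, where 7.67% of all genes tested were called, 4.37% lower and 3.3% higher (a call is an adjusted p under 0.05 by limma, with Benjamini-Hochberg adjustment over all genes tested). The median log2 fold change was -0.40 over the 19 enzymes and -0.27 over the 30 genes, against 0.00034 over all genes tested. The 2 groups did not overlap, with the transgenic libraries lower, for 19 of the 30 genes, against 16% of all genes tested, and with the transgenic libraries higher for 4, against 15.1%. Fold changes here and below are on the log2(FPKM + 1) scale, which understates those of low genes.

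In the mevalonate arm 6 of 7 genes fell. Hmgcs1 (chromosome 13, 119690351 to 119708260, mm10), which makes the hydroxymethylglutaryl-CoA that feeds the arm, stood at 119, 144 and 129 FPKM in the Cck-/- libraries and at 76.4, 74.8 and 70.1 FPKM in the transgenic libraries. Every transgenic library was below every Cck-/- library, and the log2 fold change was -0.81 (SE 0.12, adjusted p = 0.000801; limma). Fdps, which joins isoprenoid units into farnesyl diphosphate, stood at 51.4, 54.7 and 49.6 against 42.0, 38.2 and 41.5 FPKM, a log2 fold change of -0.35 (SE 0.05, adjusted p = 0.00124; limma). Mvd, the decarboxylase that closes the mevalonate steps, stood at 18.8, 20.2 and 18.6 against 12.1, 13.3 and 12.2 FPKM (-0.58, SE 0.10, adjusted p = 0.00260; limma). Idi1, the isomerase of the isoprenoid units, stood at 44.4, 49.5 and 44.4 against 30.2, 31.4 and 29.3 FPKM (-0.59, SE 0.12, adjusted p = 0.00868; limma). Groups were apart for each of these genes. The kinase genes Mvk and Pmvk fell less, by 0.28 and 0.22 on the log2 scale. Acat2, the cytosolic thiolase that condenses acetyl-CoA, was the member of the arm that was not called: it stood at 15.2, 15.8 and 15.2 FPKM against 13.4, 15.1 and 14.8 FPKM (a log2 change of -0.090, adjusted p = 0.492; limma).

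From squalene to cholesterol 11 of 12 genes fell at week 5. Cyp51 (chromosome 5, 4080674 to 4104697, mm10), the demethylase of lanosterol, stood at 31.6, 36.9 and 33.3 FPKM in Cck-/- and at 19.5, 18.6 and 17.97 FPKM in transgenic libraries. The groups were far apart, and the log2 fold change of -0.82 (SE 0.10, adjusted p = 0.000208; limma) was the largest of the 30. Sc5d (chromosome 9, 42254177 to 42264300, mm10), a desaturase of late sterol intermediates, stood at 43.5, 48.4 and 47.6 against 27.6, 32.2 and 25.2 FPKM (-0.70, SE 0.09, adjusted p = 0.000208; limma). Its mean in the transgenic libraries of week 5, 28.3 ± 3.59 FPKM (SD, n = 3), was the lowest of the 6 groups. The next lowest mean, 30.6 ± 2.67 FPKM (SD, n = 3) in transgenic week 28, did not differ from it beyond their spread. Sqle (chromosome 15, 59315092 to 59331193, mm10), the squalene epoxidase, stood at 35.9, 38.7 and 35.3 against 22.0, 25.6 and 23.4 FPKM (-0.61, SE 0.11, adjusted p = 0.00379; limma). Dhcr7, a reductase of the closing step, stood at 22.3, 24.6 and 22.4 against 13.9, 16.9 and 15.4 FPKM. Msmo1, a sterol methyl oxidase, lay at 50.7 to 55.2 against 32.5 to 36.4 FPKM. For both the groups were apart. The smaller decreases were those of Ebp, a sterol isomerase, and Lss, the lanosterol synthase, each by 0.27 on the log2 scale. Fdft1 (squalene synthase), Tm7sf2 (a sterol reductase), Nsdhl and Hsd17b7 (parts of the demethylation steps) fell by 0.40, 0.31, 0.35 and 0.50. Lbr, a sterol reductase that is also the lamin B receptor of the nuclear envelope, was the member not called: it stood at 8.20, 9.19 and 8.23 against 8.69, 9.25 and 8.63 FPKM. Exons of Fdft1 share 18.3% of their bases with Ctsb on the opposite strand (GENCODE M21), and the counting is not stated to use strand, so reads of this pair may be mixed. Exons of Tm7sf2 share 12.1% of their bases with Vps51 on the same strand, where strand cannot separate the reads. Smaller shares, all on the opposite strand, were those of Ggps1 with Arid4b (5.44%) and Cyp51 with Akap9 (3.76%). Lss shared 3.53% with an antisense gene and Srebf1 1.93% with Rai1.

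**Figure D1:**
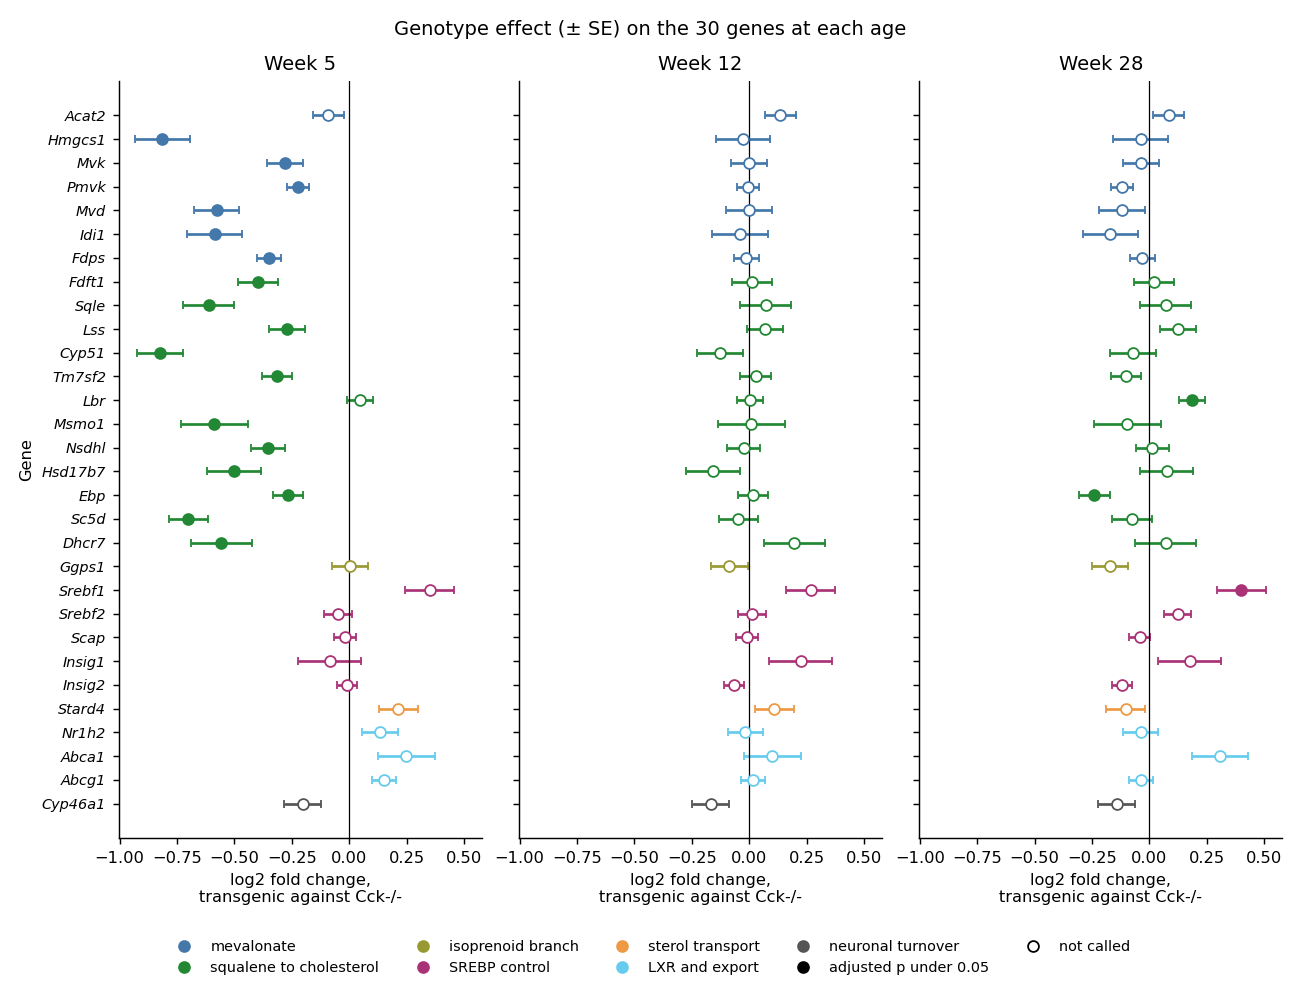
Log2 fold change (x axis, log2 of FPKM + 1, bars ± SE from limma) of each of the 30 genes (y axis, coloured by role) between transgenic and Cck-/- libraries at weeks 5, 12 and 28, 3 libraries per group; filled points have an adjusted p under 0.05. At week 5 the 17 filled points are all synthesis enzymes and all lie left of 0, week 12 has no filled point, and week 28 has 3.

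None of the genes that control SREBP was called at week 5. Srebf2, the SREBP gene most tied to cholesterol synthesis, stood at 30.6, 32.9 and 31.3 FPKM in Cck-/- and at 31.9, 29.8 and 29.9 FPKM in transgenic libraries of week 5. Scap, the escort of SREBP, stood at 22.8, 23.1 and 22.9 against 22.9, 22.6 and 22.4 FPKM. For Insig1 the values were 36.3, 44.0 and 39.8 against 33.0, 42.5 and 37.8 FPKM, and for Insig2 31.8, 32.2 and 30.4 against 30.9, 30.2 and 32.8 FPKM. In all 4 of these genes the genotypes overlapped, and their log2 fold changes lay between -0.085 and -0.0084. Srebf1, whose product is most tied to fatty acid synthesis, was higher without overlap, at 12.4, 12.1 and 13.1 against 14.1, 16.8 and 18.01 FPKM, but was not called (log2 fold change 0.35, SE 0.11, adjusted p = 0.0606; limma). Insig1 is itself a known SREBP target. Its log2 fold change was -0.085 (SE 0.14), beside -0.81 for Hmgcs1 in the same libraries. That difference between genes was not tested, and SREBP activity was not measured.

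Genes of transport, export and turnover were not called at week 5 either. Stard4, which carries cholesterol between membranes, stood at 14.8, 15.3 and 14.2 against 19.2, 16.9 and 15.9 FPKM, apart in the direction opposite to the enzymes (log2 fold change 0.21, adjusted p = 0.149; limma). Abcg1 stood at 20.2, 20.1 and 20.04 against 22.5, 23.7 and 21.3 FPKM, and Abca1 at 6.20, 8.04 and 8.21 against 8.05, 9.70 and 9.40 FPKM. For Nr1h2, which encodes LXR beta, the values were 31.7, 29.0 and 28.7 against 33.0, 32.9 and 32.4 FPKM. Transgenic libraries were thus above every Cck-/- library for Stard4, Abcg1 and Nr1h2, and overlapped them for Abca1. Cyp46a1 stood at 22.0, 20.8 and 21.6 against 18.9, 19.2 and 17.5 FPKM, apart and lower, with a log2 fold change of -0.20 (adjusted p = 0.152; limma). Ggps1, which makes geranylgeranyl diphosphate for protein prenylation from the same precursor as squalene, stood at 21.5, 24.1 and 23.6 against 24.6, 22.7 and 22.0 FPKM.

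**Figure D2:**
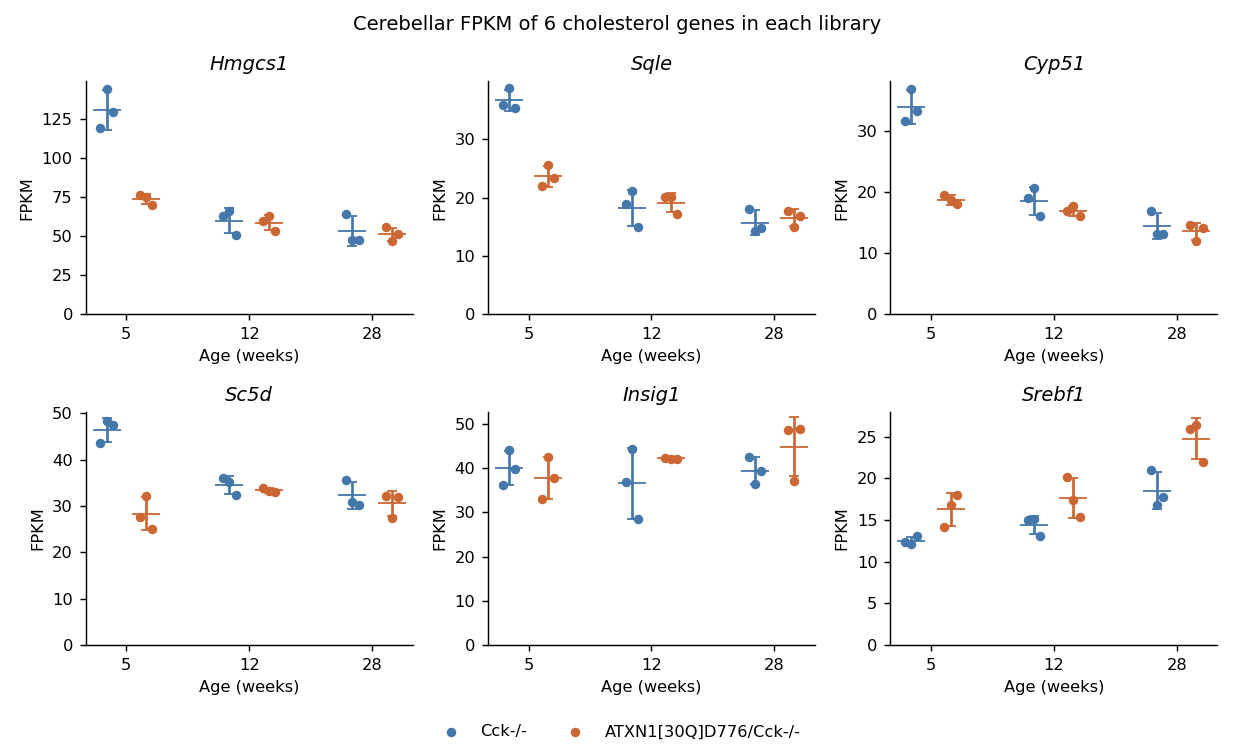
FPKM (y axis, from 0) in each library of 6 genes by age in weeks (x axis, not to scale); points are libraries, the horizontal mark is the mean and the bar ± SD of 3 libraries. Hmgcs1, Sqle, Cyp51 and Sc5d are highest in the Cck-/- libraries of week 5, Insig1 overlaps between genotypes at week 5, and Srebf1 is highest in the transgenic libraries of week 28.

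Myelin genes moved with the enzymes at week 5, where 7.67% of all genes tested were called, 4.37% lower and 3.3% higher. Of 20 myelin markers, 10 fell and 0 rose, including the myelin lipid enzymes Ugt8a and Fa2h, by 0.75 and 0.50 on the log2 scale, and the myelin glycoprotein gene Mog, by 0.62. Their summed level was 5898 to 7058 FPKM in the Cck-/- and 4808 to 4910 FPKM in the transgenic libraries, and none of the 20 was at 0 in every library. The mean log2 level of the 19 enzymes was 4.62, 4.72 and 4.63 in the Cck-/- libraries and 4.21, 4.27 and 4.20 in the transgenic libraries. With the myelin level of each library as a covariate, 8 of the 30 genes were still called lower and 1 higher at week 5, with log2 fold changes between -0.60 (Cyp51) and -0.079 (Lss) for the 17 enzymes called without it. The gene called higher was not among these 17. Over all genes tested 1117 were called at week 5 with the covariate and 1035 without it. In bulk RNA, fewer cells of a type and less RNA per cell cannot be told apart. Of 9 markers of oligodendrocyte precursors 0 were called (187 to 207 FPKM summed, against 175 to 202). Of 13 Purkinje cell markers 5 fell (4597 to 4822 against 3782 to 4185 FPKM summed), and of 12 astrocyte and Bergmann glia markers 2 fell (2679 to 2985 against 2595 to 2668). Of 8 granule neuron markers 1 fell (2063 to 2112 against 1771 to 2035), and of 6 endothelial markers 1 rose and 1 fell (133 to 141 against 111 to 127). No microglia, meninges, blood or choroid plexus marker was called by limma (0 of 10, 8, 5 and 10 tested, with 0, 0, 2 and 4 at an unadjusted p under 0.05). Summed levels of these 4 lists, over all listed markers, were 93.3 to 106 against 96.0 to 129 FPKM for microglia, 95.4 to 146 against 110 to 147 for meninges, 560 to 900 against 307 to 425 for blood and 2001 to 2716 against 114 to 3435 for choroid plexus. The part of these cell types in the enzyme result was not tested.

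**Figure D3:**
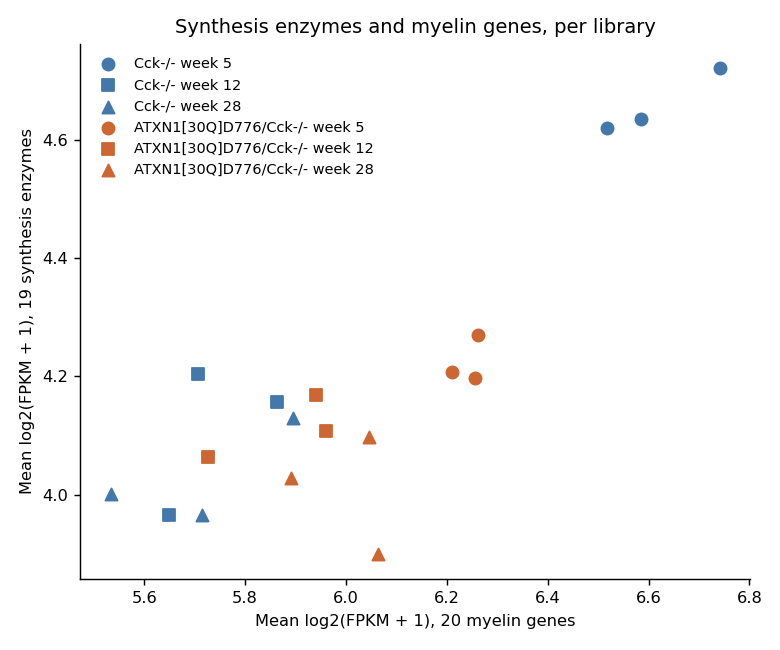
Mean log2(FPKM + 1) of the 19 synthesis enzymes (y axis) against that of 20 myelin genes (x axis) in each of the 18 libraries, coloured by genotype and shaped by age. The 3 Cck-/- libraries of week 5 stand highest on both axes, and the 3 transgenic libraries of week 5 lie between them and the 12 older libraries on the myelin axis.

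With the 3 libraries low in choroid plexus genes left out, transgenic replicate 3 stood alone at week 5 and was assumed to vary like the other groups; 5 genes were called at week 5: Hmgcs1, Mvd, Cyp51, Tm7sf2 and Sc5d. The median log2 fold change of the 30 genes was then -0.28. Without the 3 libraries with Xist and Y-linked genes 11 were called. Calls over the whole table also dropped in these fits, from 1035 to 309 and to 666 genes. The count was also 11 without Cck-/- week 5 replicate 2 and 10 without replicate 3. Lss, Mvk, Ebp, Msmo1, Hsd17b7, Dhcr7, Pmvk and Fdft1 each lost their call in at least 1 fit without 1 library. For Pmvk and Fdft1 this was 1 fit each, without Cck-/- week 5 replicate 1 and replicate 3. Of the 18 such fits, Lss lost its call in 11, Mvk and Msmo1 in 6 each, Ebp in 5, and Hsd17b7 and Dhcr7 in 3 each. For these 6 genes the fit without Cck-/- week 5 replicate 2 was among them, where the adjusted p was 0.164 for Lss (limma).

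In the Cck-/- cerebellum transcript levels of the synthesis pathway fell after week 5. From week 5 to 12, 18 of 19 enzymes fell, Lbr being the exception, and no other member was called, so that 18 of 30 genes were lower and 0 higher, where 11.8% of all genes tested were called, 6.53% lower and 5.29% higher. This comparison shares its week 5 libraries with the genotype effect at week 5. Hmgcs1 went from 119, 144 and 129 FPKM at week 5 to 62.9, 66.1 and 50.7 FPKM at week 12 and 64.1, 47.6 and 47.6 FPKM at week 28. Its change to week 12 was the largest of the 30 (log2 fold change -1.12, SE 0.12, adjusted p = 3.48e-05; limma). Sqle fell to 18.8, 21.1 and 15.0 FPKM (-0.98, SE 0.11, adjusted p = 6.62e-05; limma), Dhcr7 to 12.7, 14.9 and 9.34 FPKM (-0.88, SE 0.13, adjusted p = 0.000644; limma) and Cyp51 to 18.99, 20.6 and 16.1 FPKM (-0.84, SE 0.10, adjusted p = 0.000106; limma). Week 5 and week 12 values did not overlap for these 4 genes. Acat2 fell from 15.2, 15.8 and 15.2 to 12.2, 12.6 and 10.6 FPKM, and Lss from 10.6, 12.3 and 11.2 to 8.31, 7.80 and 6.91 FPKM. Of the myelin markers 17 of 20 fell over the same interval and 1 rose, with a summed level of 2914 to 3376 FPKM at week 12. With the myelin covariate 1 of the 30 genes was called from week 5 to 12, Ebp, and calls over the whole table went from 1595 to 644 genes. The log2 changes of Mvd, Tm7sf2, Pmvk, Fdps and Nsdhl, no longer called, were then -0.82, -0.54, -0.45, -0.50 and -0.46, beside -0.79, -0.35, -0.24, -0.58 and -0.47 without the covariate. Those of Hmgcs1, Sqle, Dhcr7 and Cyp51 were -0.30, -0.37, -0.43 and -0.31, and those of Fdft1, Hsd17b7 and Msmo1 changed sign, to 0.15, 0.25 and 0.17. Fdft1 and Hsd17b7 lost their calls in 5 and 4 of the 18 fits without 1 library, with the highest adjusted p of 0.125 and 0.114 (limma), both without Cck-/- week 12 replicate 3.

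From week 12 to 28 Fdps and Cyp51 fell in Cck-/-, and these 2 of 30 compare with 9.65% of all genes tested that were called, 5.62% lower and 4.03% higher. Fdps went from 34.4, 35.7 and 33.2 to 30.0, 29.4 and 30.2 FPKM (a log2 change of -0.20, SE 0.05, adjusted p = 0.0330; limma), and Cyp51 reached 16.8, 13.1 and 13.2 FPKM (-0.35, SE 0.10, adjusted p = 0.0400; limma). Neither was called without Cck-/- week 12 replicate 1 or 2 or week 28 replicate 2 or 3, and the highest adjusted p was 0.106 for Fdps and 0.141 for Cyp51, both without week 12 replicate 2 (limma). Without Cck-/- week 28 replicate 1, Fdps lost its call, and without transgenic week 5 replicate 2 or Cck-/- week 5 replicate 3, Cyp51 did. The Cck-/- libraries of week 5 had the highest mean of the 6 groups for 19 of the 30 genes: all 7 of the mevalonate arm, 11 of 12 from squalene on, and Srebf2.

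In the transgenic cerebellum 1 gene changed between weeks 5 and 12. Fdps fell, from 42.0, 38.2 and 41.5 to 31.9, 37.0 and 33.6 FPKM (a log2 change of -0.24, SE 0.05, adjusted p = 0.0404; limma). It was the 1 call in 30 genes, where 1.19% of all genes tested were called, 0.601% lower and 0.593% higher, and it was lost in 12 of the 18 fits without 1 library, with the highest adjusted p = 0.149 (limma) without transgenic week 5 replicate 1. Hmgcs1 stood at 59.9, 62.8 and 53.0 FPKM at week 12, below every transgenic library of week 5, with a log2 fold change of -0.33 that was not called (adjusted p = 0.231; limma). Sc5d stood at 33.9, 33.3 and 33.0 FPKM, above every transgenic library of week 5 (log2 fold change 0.24, adjusted p = 0.237; limma). Of the 20 myelin markers 8 fell from week 5 to 12 in these libraries, to 3168 to 3745 FPKM summed.

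The difference between the genotypes in this age change was tested as the interaction. From week 5 to 12, 3 genes passed, Hmgcs1, Cyp51 and Sc5d, all with a positive value, where 0.667% of all genes tested were called, 0.452% with a positive and 0.215% with a negative one. From week 5 to 28, 5 passed, those 3 with Fdps and Sqle, where 3.65% of all genes tested were called, 1.73% with a positive and 1.92% with a negative value. At an unadjusted p under 0.05 the counts were 17 and 17 of 30. The shares of all genes tested given above are at the stricter adjusted threshold, so these 2 counts cannot be set against them. From week 12 to 28 no gene of the table passed by limma, 0 of 30 here (2 at an unadjusted p under 0.05) and 0% of all genes tested. Over the whole table that 0 became 149 genes without transgenic week 28 replicate 3 and 102 without the libraries low in choroid plexus genes, with 0 of the 30 among them. Without the libraries with Xist and Y-linked genes 0 of the 30 passed in the first interaction and 0 in the second, without those low in choroid plexus genes 1 and 1, and with the myelin covariate 0 and 0. Over the whole table the 90 and 492 genes called in these interactions became 28 and 65, 32 and 383, and 74 and 30 in the same fits. Leaving out transgenic week 12 replicate 2, transgenic week 5 replicate 1, Cck-/- week 12 replicate 3 or Cck-/- week 5 replicate 2 or 3 ended all 3 calls of the first interaction. The second had 1 call left without transgenic week 28 replicate 1, 2 without transgenic week 5 replicate 3, Cck-/- week 28 replicate 2 or 3 or Cck-/- week 5 replicate 2 or 3, and 3 without Cck-/- week 5 replicate 1. It had 9 without Cck-/- week 12 replicate 3 or week 28 replicate 1.

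**Figure D4:**
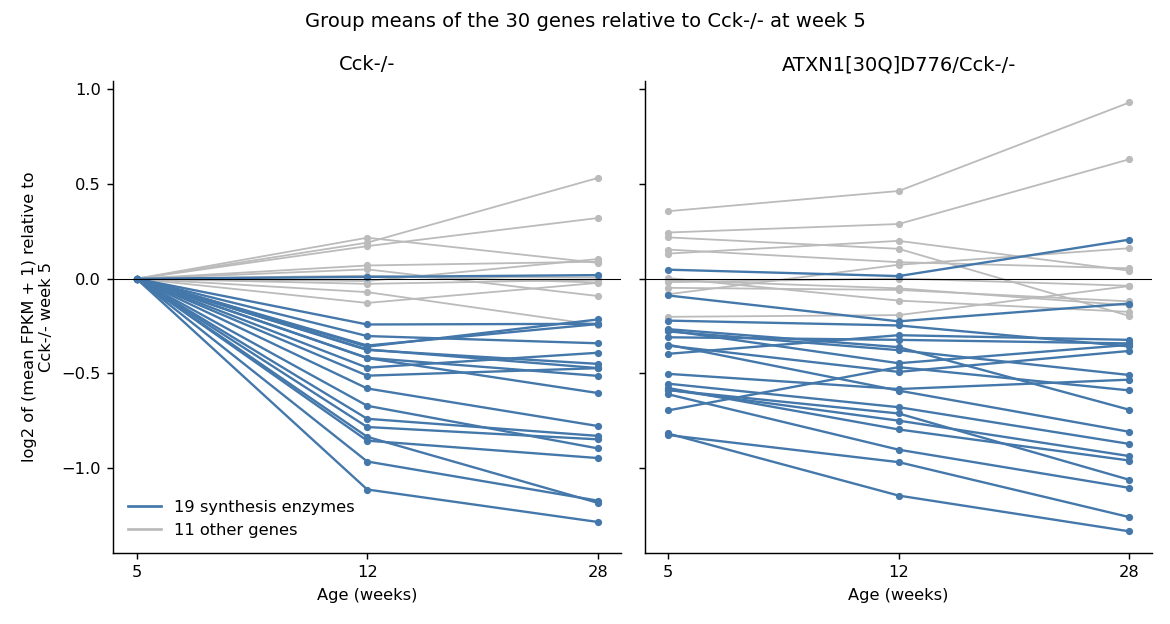
Group mean FPKM + 1 of each of the 30 genes relative to Cck-/- week 5, as log2 (y axis), by age in weeks (x axis, not to scale) in Cck-/- (left) and transgenic (right) cerebellum, 3 libraries per mean. The lines of the enzymes drop between weeks 5 and 12 in Cck-/-, whereas in transgenic libraries most already start below 0 at week 5.

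At week 12 no genotype difference was called in these genes: 0 of 30 by limma (1 at an unadjusted p under 0.05), where 1.36% of all genes tested were called, 1.08% lower and 0.282% higher. The median log2 fold change was 0.0014, against 0.0023 over all genes tested. Hmgcs1 stood at 62.9, 66.1 and 50.7 FPKM in Cck-/- and at 59.9, 62.8 and 53.0 FPKM in transgenic libraries. Cyp51 stood at 18.99, 20.6 and 16.1 against 16.8, 17.6 and 16.1 FPKM, and Sqle at 18.8, 21.1 and 15.0 against 20.1, 20.1 and 17.2 FPKM. Each of these pairs overlapped. Groups were apart with the transgenic libraries lower for 0 of 30 genes, against 8.74% of all genes tested, and with them higher for 2, against 7.95%: Acat2, at 12.2, 12.6 and 10.6 against 12.7, 13.7 and 12.7 FPKM, and Srebf1, at 15.0, 15.1 and 13.1 against 20.1, 17.4 and 15.4 FPKM.

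At week 28, 3 of the 30 genes differed, 2 higher and 1 lower in the transgenic libraries, where 10.7% of all genes tested were called, 4.54% higher and 6.13% lower. Srebf1 (listed locus chromosome 11, 60105013 to 60220604, mm10) stood at 21.05, 16.8 and 17.8 FPKM in Cck-/- and at 25.9, 26.4 and 21.9 FPKM in transgenic libraries, and the groups were apart by a log2 fold change of 0.40 (SE 0.11, adjusted p = 0.0277; limma). That locus is not the RefSeq span of Srebf1: it ends short of a RefSeq start whose promoter window begins at 60222582. Exons of Srebf1 share 1.93% of their bases with Rai1 on the opposite strand (GENCODE M21), so reads of this pair may be mixed. Lbr stood at 8.27, 8.58 and 9.14 against 10.6, 9.83 and 9.53 FPKM (0.19, SE 0.06, adjusted p = 0.0490; limma). Ebp stood at 17.3, 20.3 and 19.99 against 15.8, 15.5 and 16.8 FPKM (-0.24, SE 0.07, adjusted p = 0.0311; limma). Groups were apart for each of the 3. Lbr lost its call in 14 of the 18 fits without 1 library, with a highest adjusted p of 0.211 without transgenic week 28 replicate 1 (limma). Without Cck-/- week 28 replicate 3 Lbr alone was called. None of them was called without transgenic week 28 replicate 1 or 2, without Cck-/- week 28 replicate 2, without the libraries with Xist and Y-linked genes, with the myelin covariate, or when only these 6 libraries were fitted. At this age 5 of 20 myelin markers rose (2633 to 3413 against 3547 to 4054 FPKM summed), 5 of 10 microglia markers rose (134 to 195 against 199 to 304) and all 13 Purkinje cell markers fell (4458 to 4825 against 1628 to 3126). Of 12 astrocyte and Bergmann glia markers 3 rose and 5 fell (2562 to 3187 against 2478 to 2743 FPKM summed), and of 9 markers of oligodendrocyte precursors 2 rose (142 to 184 against 177 to 185). The part of these cell types in the 3 differences was not tested.

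The other genes at week 28 were not called. Abca1 was higher without overlap, at 9.95, 9.19 and 9.65 against 13.3, 11.6 and 11.5 FPKM (a log2 change of 0.31, SE 0.12, adjusted p = 0.127; limma). Cyp46a1 was lower without overlap, at 22.8, 22.9 and 23.6 against 20.7, 20.2 and 21.7 FPKM, as at week 5 (-0.14, adjusted p = 0.287; limma). At week 12 it stood at 24.1, 22.4 and 17.3 against 18.9, 18.5 and 18.5 FPKM, where Cck-/- replicate 3 was below the transgenic libraries. Insig2 and Ggps1 were likewise lower without overlap, at 30.5 to 31.6 against 27.3 to 29.3 FPKM and at 21.63 to 24.1 against 18.2 to 21.62 FPKM. In all the transgenic libraries were apart and lower for 6 of 30 genes, against 12.9% of all genes tested, and apart and higher for 3, against 13.2%. Hmgcs1, at 64.1, 47.6 and 47.6 against 55.5, 47.1 and 51.2 FPKM, overlapped between genotypes.

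Between weeks 12 and 28 the transgenic libraries changed in 8 of the 30 genes, 3 higher and 5 lower, where 23.8% of all genes tested were called, 10.2% higher and 13.7% lower. Srebf1 rose from 20.1, 17.4 and 15.4 to 25.9, 26.4 and 21.9 FPKM (a log2 change of 0.47, SE 0.11, adjusted p = 0.00684; limma). Abca1 and Lbr rose by 0.36 and 0.19 on the log2 scale. Stard4 fell from 15.98, 15.9 and 17.8 to 13.5, 11.5 and 13.3 FPKM (-0.36, SE 0.09, adjusted p = 0.00885; limma). Ebp fell by 0.33, Idi1 by 0.36, Cyp51 by 0.29 and Fdps by 0.22 on the log2 scale. Over the same interval 9 of 10 microglia markers rose (127 to 194 FPKM summed at week 12, 199 to 304 at week 28) and 12 of 13 Purkinje cell markers fell (3500 to 4028, then 1628 to 3126). Of 12 astrocyte and Bergmann glia markers 4 rose and 3 fell (2639 to 2699, then 2478 to 2743 FPKM summed). Rises were also called for 3 of 20 myelin markers (3168 to 3745, then 3547 to 4054) and 3 of 9 of oligodendrocyte precursors (163 to 178, then 177 to 185). The part of these cell types in the 8 changes was not tested. Abca1, Cyp51 and Idi1 lost their calls in 13, 11 and 11 of the 18 fits without 1 library, Lbr in 4 and Fdps in 1. The count ran from 3 to 9 when 1 library was left out, was lowest without transgenic week 12 replicate 2, was 4 without transgenic week 12 replicate 3 or week 28 replicate 2, was 5 without transgenic week 28 replicate 1, transgenic week 5 replicate 2 or 3, Cck-/- week 12 replicate 1 or Cck-/- week 5 replicate 3, and was 1 without the libraries with Xist and Y-linked genes.

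Over all 18 libraries the widest ranges were those of Cyp51 and Hmgcs1, whose highest library was 3.07 and 3.06 times the lowest. Scap and Abcg1 ranged least, by 1.16 and 1.18 times. Hmgcs1 was the most abundant of the 30, between 47.1 and 144 FPKM, and Hsd17b7 lay lowest, between 4.38 and 8.63 FPKM. The members not printed library by library spanned 9.20 to 14.7 FPKM for Mvk, 22.0 to 30.0 for Pmvk, 17.4 to 26.0 for Fdft1, 7.63 to 11.1 for Tm7sf2, 22.9 to 55.2 for Msmo1 and 6.97 to 11.9 for Nsdhl.

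Lists of neighbouring pathways, also chosen with earlier results known, were examined beside these genes. At week 5, 7.67% of all genes tested were called, 4.37% lower and 3.3% higher. Of 17 genes of fatty acid synthesis 4 fell and 0 rose, namely the elongases Elovl1 and Elovl6 and the acetyl-CoA synthetase Acss2, by 0.48, 0.32 and 0.23 on the log2 scale, and Pnpla3, a lipase, by 0.37. Of 14 genes of SREBP processing and sterol-regulated turnover, Mylip, a ubiquitin ligase induced by LXR, rose by 0.49, and Rnf139 fell by 0.17. In the list of sterol transport and storage 3 of 21 rose, Abca5, Osbpl1a and Gramd1b, by 0.20, 0.27 and 0.25. Icmt, a methyltransferase of prenylated proteins and also in the Purkinje cell list, was the decrease among 12 genes of isoprenoid use, by 0.63, and 0 of 6 tested LXR partners and targets were called by limma (2 at an unadjusted p under 0.05). Median log2 fold changes of the 5 lists at week 5 lay between -0.048 and 0.049, against -0.40 for the 19 enzymes.

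At week 12 the neighbouring lists held 2 calls, where 1.36% of all genes tested were called: Elovl6, 1 of 17 genes of fatty acid synthesis, fell by 0.30, and Icmt, 1 of 12 of isoprenoid use, fell by 0.92. At week 28, where 10.7% of all genes tested were called, the same 2 genes were the calls of these lists, with decreases of 0.37 and 1.68. Of 6 tested LXR partners and targets 2 rose, Cyp7b1, an oxysterol hydroxylase, by 0.55 and Lpcat3, a phospholipid acyltransferase induced by LXR, by 0.20. Of 21 genes of sterol transport and storage 3 rose, Clu (an apolipoprotein), Stard5 (a sterol carrier) and Abca5 (a transporter), by 0.58, 0.29 and 0.18. Of 14 genes of SREBP processing and turnover 3 fell, Ube2g2, Ubxn8 and Rnf145, by 0.18, 0.25 and 0.27, and 1 rose, Mylip, by 0.26.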

How the data were processed

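The authors' deposited values are FPKM per gene symbol for 18 cerebellum libraries, made per the submitters' processing notes with TopHat2 2.0.11, Cufflinks 2.2.1 and build mm10. The annotation, read filters and scaling between libraries are not given in the labels or headers. None of the 30 genes carried a failed status. A log2(FPKM + 1) was taken, and the 13487 genes at 1 FPKM or more in 3 or more libraries were fitted with limma 3.58.1 in R 4.3.3 (mean-variance trend, 6 group means, 12 residual degrees of freedom). The 10 comparisons were 3 genotype effects, 3 interactions and 4 age changes, two-sided, with Benjamini-Hochberg adjustment within each. Alternatives were other pseudocounts, filters and scalings, no trend, a replicate block, a myelin covariate, the compared groups only and fits without 1 or more libraries. FPKM are not counts, so no count model was used, and the script was checked on simulated data. Printed loci are those listed with the deposited values, with 1-based starts (locus start plus 1). Of the 30 genes, 18 had a start and 16 an end equal to that of the RefSeq gene. Genes printed by library were the 3 of each role with the smallest p at week 5, those called at weeks 12 or 28, and up to 2 more of each role by p from week 5 to 12. Up to 3 called genes of each neighbouring list and comparison are named, and 3 myelin genes, Pnpla3 and Mylip at week 28 were named after their values were seen. Members and lists were chosen with earlier results of these data known.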

Additional observations from a re-analysis of the deposited data

Results flagged for a closer look

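The genotype effect on some enzymes, negative at week 5, differed between ages by a test of the difference itself, the interaction in limma. Between weeks 5 and 12 it rose by 0.70 for Cyp51 (SE 0.14, adjusted p = 0.0372; limma), by 0.79 for Hmgcs1 (SE 0.17, adjusted p = 0.0446; limma) and by 0.65 for Sc5d (SE 0.12, adjusted p = 0.0218; limma) on the log2 scale. Between weeks 5 and 28 it rose by 0.75 for Cyp51 (adjusted p = 0.0147; limma), 0.32 for Fdps (adjusted p = 0.0345; limma), 0.78 for Hmgcs1 (adjusted p = 0.0256; limma), 0.62 for Sc5d (adjusted p = 0.0171; limma) and 0.68 for Sqle (adjusted p = 0.0317; limma). Each rise started from a negative value, so the gap between genotypes was narrower at the later age. For Hmgcs1 the Cck-/- mean went from 131 FPKM at week 5 to 59.9 FPKM at week 12. Its transgenic mean went from 73.8 to 58.6 FPKM. Both interactions share the week 5 libraries. In the first interaction Hmgcs1 lost its call in 14 of the 18 fits without 1 library, Cyp51 in 12 and Sc5d in 5. The highest adjusted p was 0.113 for Cyp51 and 0.132 for Hmgcs1, both without transgenic week 12 replicate 2 (limma). For Sc5d it was 0.0692, without Cck-/- week 5 replicate 2 (limma). In the second, each call but that of Cyp51 was lost without transgenic week 28 replicate 1, with adjusted p between 0.0504 and 0.0934 (limma). Over the 18 fits Fdps lost its call in 9, Sqle in 8, Hmgcs1 in 6 and Sc5d in 1.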

How the results depend on the processing

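Of the 30 genes, 17 were called at week 5 in the fit reported, and 15 to 18 under other pseudocounts, filters, scalings, no trend, the replicate block and the compared groups only. The count was 9 with the myelin covariate, 5 with the libraries low in choroid plexus genes left out and 11 without those with Xist and Y-linked genes, and 10 to 18 when 1 library was left out. The median log2 fold change at week 5 was -0.17 with the myelin covariate and -0.28 to -0.23 without 1 library. Sc5d, Cyp51, Tm7sf2, Hmgcs1 and Mvd were called at week 5 under every one of the 30 alternatives run. From week 5 to 12 in Cck-/- the count of 18 became 1 with the myelin covariate, where Fdft1, Hsd17b7 and Msmo1 changed sign to 0.15, 0.25 and 0.17 (log2) while Mvd, Tm7sf2, Pmvk, Fdps and Nsdhl stood at -0.82 to -0.45 without a call, and ran from 16 to 19 without 1 library. From week 12 to 28 in Cck-/- the count of 2 was 4 with that covariate, 1 without a filter, 0 with the compared groups only, 0 with quantile normalization, 1 without the libraries with Xist and Y-linked genes and 0 to 3 without 1 library.

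At week 12 the count of 0 was 0 to 1 without 1 library, and its median -0.031 to 0.028. At week 28 the count of 3 was 0 with the myelin covariate, the compared groups only or without the libraries with Xist and Y-linked genes, and 0 to 3 without 1 library (median -0.050 to 0.027). The interaction of weeks 5 and 12, with 3 calls, gave 0 with the covariate, 1 without a filter, 1 with quantile normalization, 1 without the libraries low in choroid plexus genes, 0 without those with Xist and Y-linked genes and 0 to 6 without 1 library. That of weeks 5 and 28, with 5, gave 0, 1 and 0 with the covariate and without these sets of libraries, and 1 to 9 without 1 library; that of weeks 12 and 28 gave 0 throughout. In transgenic libraries the 8 calls from week 12 to 28 became 5 without a filter, 3 with the compared groups only, 5 without the libraries low in choroid plexus genes, 1 without those with Xist and Y-linked genes and 3 to 9 without 1 library. The 1 call from week 5 to 12 became 0 with the covariate, the compared groups only, the replicate block and without either set of libraries, and 0 to 1 without 1 library. Fits without libraries have fewer samples; otherwise the cause was not tested. The choroid plexus and Xist alternatives were chosen after seeing the data.

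Same-numbered libraries did not generally deviate alike: of 45 same-numbered pairs of libraries 15 had deviations correlated over 0.1 (median -0.018). Between the genotypes at week 12 the correlations were 0.435, -0.160 and 0.283 for replicates 1, 2 and 3. Pairs of unlike number were not compared, so pairing within an age is not settled by these values. With the replicate block 17 genes were called at week 5. Depth is unknown, so counting error could not be set against these values, and with 3 libraries per group small differences may be missed.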

Other observations

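Within groups the enzymes tended to share their lowest library, and whether genes outside the list did so too was not examined. Transgenic week 28 replicate 2 was the lowest of its group for 16 of the 19 enzymes and replicate 1 the highest for 15. Summed FPKM over all genes was 441509 in that replicate 2 and 389248 in that replicate 1, the highest and the lowest of the 18 libraries. A shift of the whole library was not tested. Cck-/- week 12 replicate 3 was the lowest for 14, with Hmgcs1 at 50.7 FPKM against 62.9 and 66.1, and Cck-/- week 5 replicate 2 the highest for 14. The summed level of the 19 enzymes was 308 FPKM in transgenic week 28 replicate 2, against 356 and 339 FPKM in replicates 1 and 3, while its summed myelin level of 4054 FPKM was the highest of that group.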
